A study of Rattus norvegicus with 12 samples.

Results

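Integrins are the receptors by which cells hold on to the matrix around them, and laminins are the main cell-binding proteins of basement membranes. The integrin and laminin genes described here were chosen by name: on the array it begins with Itga, is Itgb followed by 1 digit, or is Lama, Lamb or Lamc followed by a digit. The 26 genes are measured by 32 of the 30367 probes other than controls. They are 12 integrin alpha chains, 8 integrin beta chains, 2 laminin alpha chains, 2 laminin beta chains and 2 laminin gamma chains. To be tested, a probe had to be well above background on each of the 4 arrays in some group; 22 of the 26 genes met this, among 18497 tested genes. Itga2, Itgae, Itgal and Itgb2 did not pass. Itga3, Itgav, Itga9, Lama2, Lama3, Lama4 and Lamb1 were not analysed here, so the partners of several chains below are missing. Itga8 was reached only through its accession and is not counted among the 26.

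The arrays measured RNA of the left kidney of female F344 rats, 10 weeks old. Ischaemia and reperfusion, a period of interrupted and then restored blood flow, was applied to the left kidney only. Kidneys were taken at day 3 (4 rats) or day 7 (4 rats), and the 4 sham-operated rats were killed at day 7, so no sham kidney matches day 3 in time. Each rat gave 1 array with 1 dye. In the sham group the kidney's own markers Umod, Slc34a1 and Aqp2 were well above background on 4 of 4 arrays.

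An integrin is a pair of 1 alpha and 1 beta chain, and the pair sets the ligand. Itgb1 joins most alpha chains, alpha-v among them, and Itga6 joins Itgb1 or Itgb4. The alpha-v chain also joins Itgb3, Itgb5, Itgb6 or Itgb8, and Itgal, Itgam and Itgad join Itgb2 on leukocytes. A laminin is a trimer of 1 alpha, 1 beta and 1 gamma chain. Lamb3 belongs to the epithelial laminin that anchors cells through the pair of Itga6 and Itgb4, whereas Lama5, Lamb2 and Lamc1 form the laminin of the mature glomerular basement membrane.

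Values are log2 of the processed spot signal relative to the 75th percentile of the same array, so 0 is the level of that percentile and a difference of 1 is a 2-fold difference. That percentile itself was 328 ± 72.6 (SD, n = 4) in sham, 714 ± 34.5 at day 3 and 502 ± 60.9 at day 7, which is 2.17 and 1.53 times the sham mean (p = 0.0286 for each, two-sided exact permutation test, the smallest p that 4 against 4 arrays can give). Scaling each array to its total signal moved the median change of all genes at day 3 from -0.13 to 0.15, and that at day 7 from -0.07 to 0.17, so directions below are relative to the 75th percentile. Between 65.0% and 80.6% of spots were well above background on each array. Levels are compared within a probe only, since brightness differs between probes for reasons other than RNA. Tests are limma's moderated test over 3 groups of 4 arrays, with p-values adjusted over all tested genes by Benjamini and Hochberg's method and called at 0.05. The changes are given ± SE.

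The probes behind the largest changes are shown first, because each result rests on the short stretch of transcript that its probe matches. Each probe is 60 bases, printed 5′ to 3′ in lower case as deposited, and positions are those of rat build rn4 given in the files. The probe of Lamb3 (chr13:109187343-109189861, plus strand) spans more than its own length in the genome, as a probe across an intron does. Those of Itga6 (chr3:54263800-54263859), Itga7 (chr7:2264646-2264705) and Itga10 (chr2:191465132-191465191), all on the plus strand, each match 1 unbroken stretch.
Lamb3: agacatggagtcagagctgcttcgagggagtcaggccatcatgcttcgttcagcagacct
Itga6: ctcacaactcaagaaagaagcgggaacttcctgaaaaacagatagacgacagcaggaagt
Itga7: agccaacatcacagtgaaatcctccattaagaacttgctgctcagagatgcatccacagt
Itga10: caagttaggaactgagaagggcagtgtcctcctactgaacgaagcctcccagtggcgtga

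At day 3, 13 of the 22 tested genes differed from sham, 8 higher and 5 lower. This share, 59.1%, was near the background of all tested genes, of which 57.3% were called (24.2% higher and 33.1% lower). The chains did not move as a block. Lamb3, Itgb4, Itga4, Itgb1, Itga5, Itga6, Itga1 and Lamc1 rose, and Itga7, Itga10, Itgb5, Lamb2 and Lamc3 fell. Of the 13, 1 (Itga4) passed the filter only through the group where it was high. The median change of the 22 genes was 0.35, against -0.13 over all tested genes. For 9 of the 22, the sham and day 3 arrays did not overlap, against 51.7% of all tested genes. When each array was scaled to its total signal, 15 genes were called, 12 higher and 3 lower. Background correction by normexp left 3 calls, those of Itgb1, Itgb4 and Itga6. Of all tested genes, 57.3% were called after total signal scaling and 17.1% after normexp.

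By day 7 the number had fallen to 5 of 22, or 22.7%, beside 18.9% of all tested genes. Itgb4 and Itga6 were higher than in sham (2 genes, background 8.23%), and Itga7, Itga10 and Itgb5 were lower (3 genes, background 10.6%). None of the 6 laminin chains was called at day 7 by the brighter probe of each gene in limma's test, although the other probe of Lamc1 was (below). At an unadjusted p under 0.05 there was 1 laminin. The sham and day 7 arrays overlapped for all 6. Scaled to total signal, 7 genes were called at day 7, 5 higher and 2 lower, and after normexp only Itgb4 was. Of all tested genes, 22.4% and 0.492% were called in these settings.

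Directly between the injured groups, 4 of 22 genes differed, or 18.2%, below the 31.4% of all tested genes. Lamb3 and Itgb1 were lower at day 7 than at day 3 (2 genes, background 13.4%), and Itga10 and Lamb2 were higher (2 genes, background 18%). The arrays of the injured groups did not overlap for 3 of 22 members and for 36.1% of all tested genes. Scaling to total signal gave 3 calls, 1 higher and 2 lower, and normexp gave 0 (3 at an unadjusted p under 0.05). Of all tested genes, 31.3% and 0.86% were called in these settings. The comparisons with sham share the sham arrays, so their values are set side by side and not related to each other.

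The arrays lay on 3 slides, each with all groups. Within slides 1, 2 and 3, 12, 13 and 13 of the 13 genes called at day 3 kept their direction, the exception being Lamc1 (-0.16 within slide 1). All 5 genes called at day 7 and all 4 called between the injured groups kept theirs. The differences within slides come from the same arrays that gave the calls, so this agreement is not a separate test. Lamb3 was 2.69, 4.41 and 2.77 higher at day 3 within the 3 slides, and Itgb4 1.68, 2.51 and 2.01 higher. With the slide as a block, Lamc1 (0.49, adjusted p = 0.0971) and Lamc3 (-0.70, adjusted p = 0.0846) were not called at day 3, nor Itgb5 at day 7 (-0.79, adjusted p = 0.0675), nor Lamb2 between the injured groups (0.83, adjusted p = 0.0516).

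**Figure D1:**
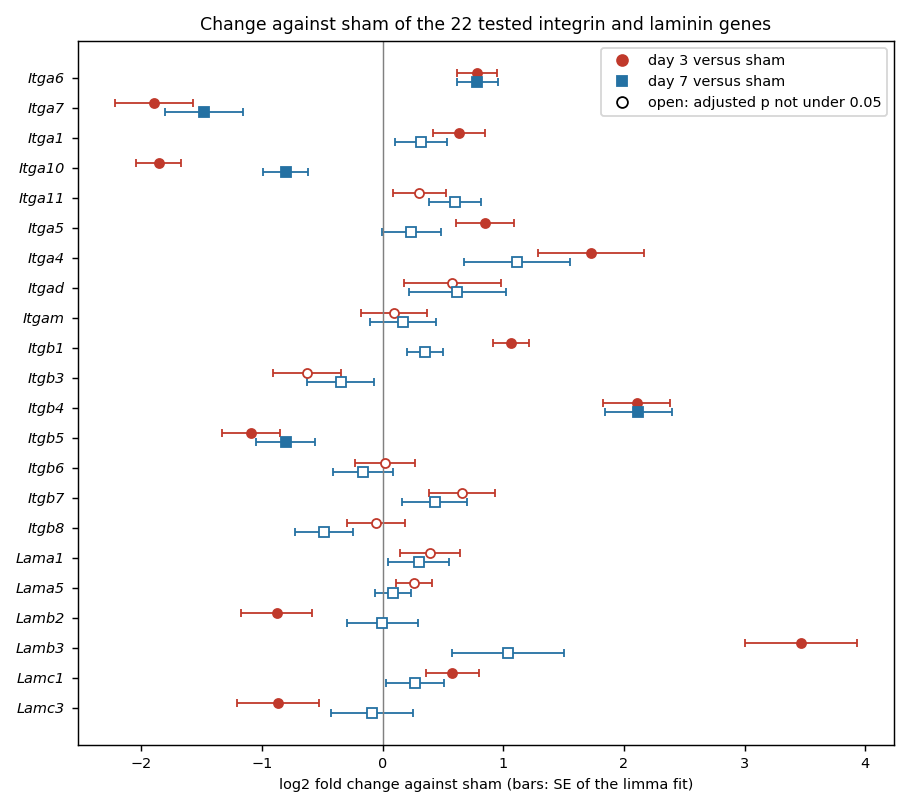
Log2 fold change against sham (horizontal axis; bars, SE of the limma fit) of the 22 tested genes, by day 3 (circles) and day 7 (squares); filled symbols have an adjusted p under 0.05. Lamb3 lies farthest right at day 3, at 3.47, Itgb4 lies at 2.11 and 2.12 on the 2 days, and Itga7 and Itga10 lie left of 0 on each.

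Lamb3, a beta chain of the epithelial anchoring laminin, rose furthest of the tested members at day 3. Lamb3 read -2.15, -3.18, -2.69 and -3.39 on the sham arrays, 0.95, 0.09, -0.08 and 1.52 at day 3, and -1.94, -1.59, -0.80 and -2.91 at day 7. Every day 3 array lay above every array of the other groups, while day 7 overlapped sham. Lamb3 was 3.47 ± 0.46 higher at day 3 than in sham (11.1-fold, adjusted p = 8.99e-05), and 0.692% of all tested genes rose more. Normexp background correction ended this call, with a change of 1.41, but when spots below their local background were left out of it, the change was 2.29 and the call held.

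From day 3 to day 7 Lamb3 dropped by 2.43 on the log2 scale (5.38-fold, adjusted p = 0.00374). Against sham, it was then 1.04 ± 0.46 higher (adjusted p = 0.137), which was not called. This day 7 value depended on a single array: without day 7 replicate 4, Lamb3 was 1.41 higher (adjusted p = 0.0465).

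The other laminin chains changed less. Lamb2, the beta chain of the mature glomerular basement membrane, read -0.08, -1.19, -0.43 and -0.18 in sham, -0.84, -1.57, -1.15 and -1.83 at day 3, and -0.11, -0.20, -0.65 and -0.95 at day 7. It fell by 0.88 at day 3 (SE 0.29, adjusted p = 0.0232), stood at -0.01 ± 0.29 from sham at day 7, and was 0.87 higher at day 7 than at day 3 (adjusted p = 0.0414). Sham and day 3 overlapped through sham replicate 2, the lowest sham array, and the injured groups overlapped because day 7 replicate 4 lay below day 3 replicate 1. Scaling to total signal ended the fall (-0.60, adjusted p = 0.117), as did leaving out sham replicate 1 or 4 or day 3 replicate 2 or 4 (-0.80 to -0.72, adjusted p = 0.0601 to 0.0726). The return by day 7 was lost without day 3 replicate 2, 3 or 4 or day 7 replicate 1 or 2 (0.71 to 0.94, adjusted p = 0.0516 to 0.121).

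Lamc1, the gamma chain of most laminins, read -0.41, -0.87, -0.66 and -0.64 in sham and 0.28, -0.09, -0.68 and 0.22 at day 3. At day 7 it read -0.16, -0.67 and -0.29 on 3 arrays, the spot of replicate 3 having been marked as an outlier. The rise at day 3 was 0.58 ± 0.22 (adjusted p = 0.0445), with day 3 replicate 3 inside the sham range. Leaving out sham replicate 2, 3 or 4, day 3 replicate 1, 2 or 4, or day 7 replicate 1 or 4 took it past the threshold (0.46 to 0.58, adjusted p = 0.0504 to 0.124). Its other tested probe showed a larger and lasting rise. That probe read -1.31, -1.52, -2.36 and -1.46 in sham, -0.36, -0.52, -0.28 and -0.28 at day 3, and -0.25, -0.66, -0.49 and -0.51 at day 7, with no overlap between sham and either injured group. Its change was 1.30 ± 0.21 at day 3 (adjusted p = 0.000321 over probes) and 1.19 ± 0.21 at day 7 (adjusted p = 0.0038 over probes).

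Lamc3, a gamma chain of low abundance outside brain and a few other tissues, read -0.75, -1.10, -1.33 and -1.50 in sham, -1.99, -2.43, -1.45 and -2.30 at day 3, and -1.56, -0.52, -2.16 and -0.80 at day 7. Of the day 7 arrays, 2 lay below the sham range, 1 within it and 1 above. It fell by 0.87 at day 3 (SE 0.34, adjusted p = 0.0463), a call lost without sham replicate 1, 2 or 3, day 3 replicate 1, 2 or 4, or day 7 replicate 1 (-0.92 to -0.73, adjusted p = 0.0531 to 0.118). From day 3 to day 7 Lamc3 changed by 0.78 ± 0.34 (adjusted p = 0.1), and without day 7 replicate 3 by 1.08 (adjusted p = 0.0206). The other Lamc3 probe gave 0.02 ± 0.75 at day 3. The laminin alpha chains were not called in limma's test in the reported setting. Lama5, the alpha chain of the adult kidney's basement membranes, lay between 1.30 and 1.91 on all 12 arrays, with changes of 0.26 ± 0.15 at day 3 and 0.08 ± 0.15 at day 7. Scaling to total signal made its day 3 change a call (0.54, adjusted p = 0.0149). So did normexp with spots below local background left out (0.34, adjusted p = 0.0431). Lama1, known from early nephron development, was near background, above it on 1 sham, 4 day 3 and 2 day 7 arrays, and changed by 0.39 ± 0.25 and 0.30 ± 0.25. Its direction at day 3 turned with the processing, since it was called higher after scaling to total signal (0.67, adjusted p = 0.0364) and lower under normexp with spots below local background left out (-0.43, adjusted p = 0.0413).

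**Figure D2:**
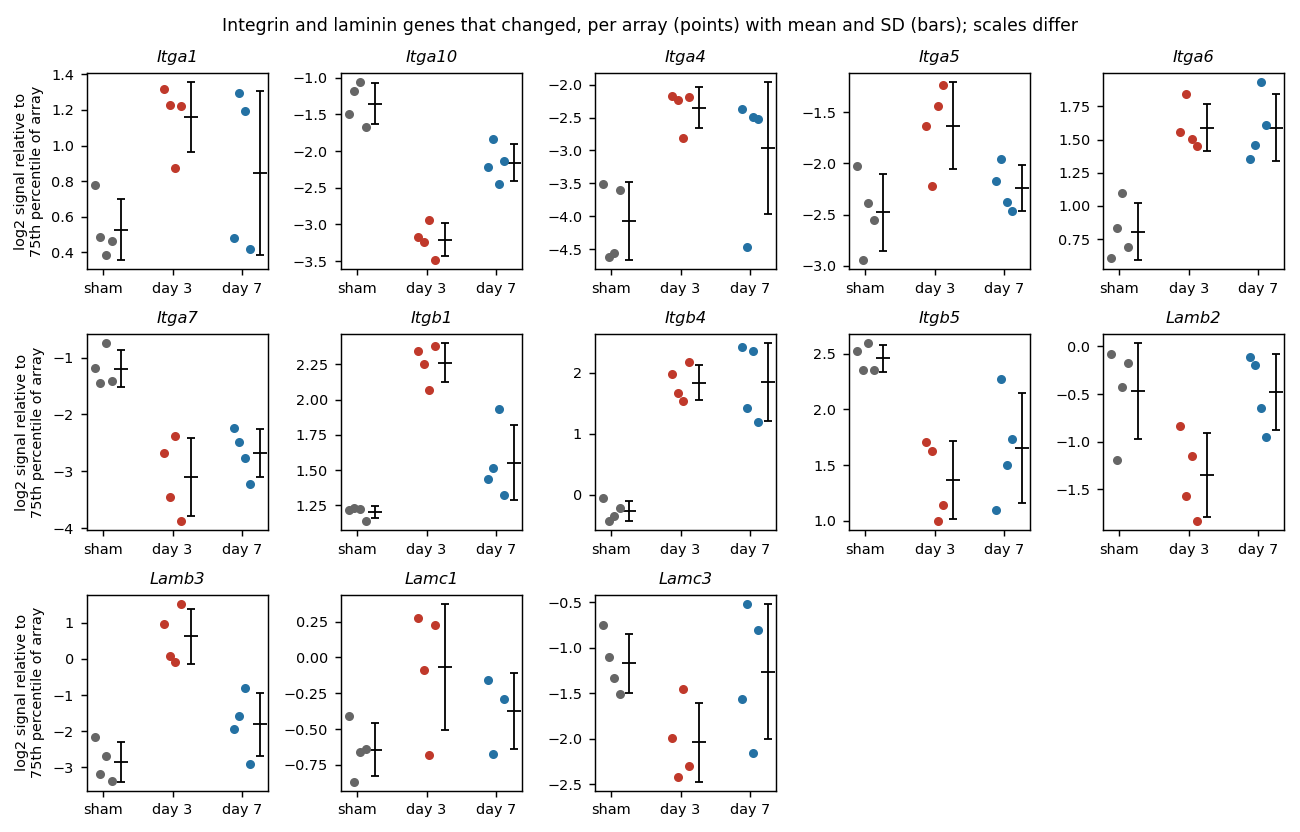
Log2 signal relative to the array's 75th percentile (vertical axis, a separate scale for each panel) of the 13 genes called in at least 1 comparison; points are arrays and bars the mean and SD (n = 4 a group, 3 for Lamc1 at day 7). Lamb3 peaks at day 3 and comes back towards sham, Itgb4 and Itga6 stay high on both days, and Itga7 stays low.

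Among the laminin receptors, Itgb4 rose and stayed high. Itgb4, the beta chain that links laminin to keratin filaments in hemidesmosomes, read -0.06, -0.44, -0.35 and -0.22 in sham, 1.98, 1.67, 1.54 and 2.17 at day 3, and 2.43, 1.42, 2.37 and 1.19 at day 7. All 8 injured arrays lay above all sham arrays. The rise was 2.11 ± 0.28 at day 3 (4.30-fold, adjusted p = 7.88e-05) and 2.12 ± 0.28 at day 7 (4.34-fold, adjusted p = 0.000821). Of all tested genes, 3.28% rose more at day 3 and 0.649% at day 7. Day 7 minus day 3 was 0.01 ± 0.28. Itgb4 was called on each day under all alternatives run.

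Itga6, the alpha chain that pairs with Itgb4, read 0.61, 0.83, 1.10 and 0.69 in sham, 1.56, 1.84, 1.50 and 1.45 at day 3, and 1.36, 1.46, 1.93 and 1.61 at day 7. Again no injured array overlapped sham. The rise was 0.78 ± 0.17 on each day (1.72-fold; adjusted p = 0.002 at day 3 and 0.00931 at day 7). Normexp ended the day 7 call (0.90, adjusted p = 0.234), which held when spots below local background were left out of it.

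Itga7, a laminin-binding alpha chain best known from muscle, went the other way. It read -1.18, -1.45, -0.74 and -1.41 in sham, -2.68, -3.45, -2.38 and -3.87 at day 3, and -2.24, -2.49, -2.77 and -3.22 at day 7. Every injured array was below every sham array. It fell by 1.90 at day 3 (SE 0.32, 3.72-fold, adjusted p = 0.00045) and by 1.48 at day 7 (2.79-fold, adjusted p = 0.0102), and 1.59% of all tested genes fell more at day 7. The difference between the injured groups was 0.41 ± 0.32 and was not called. Normexp ended the calls, with changes of -1.32 and -0.82. With spots below local background left out of it, the calls held, with a change of -0.91 at day 7 (adjusted p = 0.00509).

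The collagen-binding alpha chains also split. Itga1, a receptor of basement membrane collagen, read 0.78, 0.49, 0.39 and 0.46 in sham, 1.32, 1.23, 0.88 and 1.22 at day 3, and 0.48, 1.30, 1.19 and 0.42 at day 7. Day 3 lay wholly above sham, and the day 7 arrays fell into 2 at the sham level and 2 at the day 3 level. The rise at day 3 was 0.63 ± 0.21 (adjusted p = 0.0239), and it was not called without sham replicate 3 or day 3 replicate 1, 2 or 4 (0.58 to 0.61, adjusted p = 0.0544 to 0.0629).

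Itga10, a collagen receptor known from cartilage, read -1.50, -1.18, -1.06 and -1.67 in sham, -3.17, -3.24, -2.93 and -3.49 at day 3, and -2.21, -1.84, -2.45 and -2.13 at day 7. The groups formed 3 separate bands, with day 7 between sham and day 3. Itga10 fell by 1.86 at day 3 (SE 0.19, 3.62-fold, adjusted p = 1.78e-05) and by 0.80 at day 7 (adjusted p = 0.0133), and it was 1.05 ± 0.19 higher at day 7 than at day 3 (adjusted p = 0.00276). Normexp ended the 3 calls without a change of direction (-1.28, -0.55 and 0.73). They held when spots below local background were left out of it. A second probe was below background on all arrays. Itga11, a receptor of fibrillar collagen on fibroblasts, ranged from -2.50 to -1.80 in sham and from -1.92 to -1.12 at day 7, and its change of 0.60 ± 0.22 at day 7 was not called (adjusted p = 0.073). It was called at day 7 with the scan batch as a block (0.68, adjusted p = 0.0404) and after scaling to total signal (0.84, adjusted p = 0.0197), which also called it at day 3 (0.58, adjusted p = 0.0408). Itga2, the remaining collagen receptor, was above background on 1 sham, 3 day 3 and 0 day 7 arrays.

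Itgb1, the common partner of these chains, rose at day 3 and fell back. The brighter probe read 1.21, 1.23, 1.23 and 1.14 in sham, 2.35, 2.25, 2.07 and 2.38 at day 3, and 1.44, 1.52, 1.93 and 1.32 at day 7. The 3 groups did not overlap. It was 1.06 ± 0.15 higher at day 3 (2.08-fold, adjusted p = 0.000124), dropped by 0.71 from day 3 to day 7 (adjusted p = 0.00582), and was 0.35 ± 0.15 above sham at day 7 (adjusted p = 0.12). Scaling to total signal made its day 7 difference from sham a call (0.59, adjusted p = 0.0199). Normexp ended the call of its drop from day 3 to day 7 (-0.67, adjusted p = 0.223). The other probe read 0.31, 0.67, 0.41 and 0.37 in sham, 1.13, 1.01, 0.80 and 1.13 at day 3, and 0.23, 0.18, 0.37 and -0.26 at day 7. It gave a rise of 0.58 ± 0.16 at day 3 (adjusted p = 0.00953 over probes) and a drop of 0.89 to day 7 (adjusted p = 0.00309 over probes). At day 7 the probes stood on opposite sides of sham, at 0.35 and -0.31, with neither called.

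Itga5, which with Itgb1 forms the classical fibronectin receptor, read -2.03, -2.95, -2.39 and -2.55 in sham, -1.63, -2.22, -1.44 and -1.23 at day 3, and -2.17, -1.95, -2.38 and -2.46 at day 7. Day 3 replicate 2 lay within the sham range and the other 3 above it. The rise was 0.85 ± 0.24 at day 3 (adjusted p = 0.0101), and day 7 stood 0.24 ± 0.24 from sham. From day 3 to day 7 it changed by -0.61 ± 0.24 (adjusted p = 0.0716), and without day 3 replicate 2 by -0.81 (adjusted p = 0.0315). Under normexp the sign turned, to -0.14 (adjusted p = 0.78), and with spots below local background left out it was 0.30 (adjusted p = 0.125).

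Of the beta chains that pair with alpha-v, those other than Itgb1 fell or were not called. Itgb5, a vitronectin receptor chain, read 2.52, 2.35, 2.59 and 2.36 in sham, 1.71, 1.62, 1.0 and 1.14 at day 3, and 1.10, 2.27, 1.50 and 1.73 at day 7. Sham lay above both injured groups, narrowly so for day 7 replicate 2. Itgb5 fell by 1.09 at day 3 (SE 0.24, 2.13-fold, adjusted p = 0.00243) and by 0.81 at day 7 (adjusted p = 0.0378). The day 7 call was fragile. Total signal scaling (-0.57, adjusted p = 0.115) ended it, as did leaving out any 1 sham array or day 7 replicate 1, 3 or 4 (-0.84 to -0.62, adjusted p = 0.0527 to 0.0997). Of the 12 alternatives other than leaving out 1 array, 2 kept the day 7 call. It was lost in the authors' value table (-0.73, adjusted p = 0.0513) and for the mean of the Itgb5 probes (-0.30, adjusted p = 0.284). The other Itgb5 probe gave -0.38 ± 0.19 at day 3 and 0.20 ± 0.19 at day 7, neither called, and a difference of 0.58 between the injured groups (adjusted p = 0.0389 over probes).

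Itgb3 changed by -0.63 ± 0.28 at day 3 (adjusted p = 0.0716) and by -0.35 ± 0.28 at day 7, and without sham, day 3 or day 7 replicate 3 the day 3 fall was called (-0.81 to -0.63, adjusted p = 0.0279 to 0.0482). Itgb6 and Itgb8, known for releasing active TGF-beta from its latent form, were not called. Itgb6 changed by 0.02 ± 0.25 at day 3 and by -0.16 ± 0.25 at day 7. For Itgb8 the changes were -0.05 ± 0.24 and -0.49 ± 0.24. Itga8, the alpha chain that partners Itgb1 in kidney development and mesangium, had a probe above background on 1 sham, 4 day 3 and 0 day 7 arrays. As sham and day 7 were mostly below background, no change is given for Itga8.

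Of the integrins of leukocytes, Itgam, Itgad, Itgb7 and Itga4 could be tested, and Itga4 was called at day 3. Itga4, the receptor of Vcam1 and fibronectin on lymphocytes and monocytes, read -3.51, -4.62, -4.56 and -3.61 in sham, -2.17, -2.23, -2.81 and -2.19 at day 3, and -2.37, -4.46, -2.49 and -2.52 at day 7. It was above background on 2 sham, 4 day 3 and 3 day 7 arrays. All day 3 arrays lay above sham, and at day 7 replicate 2 stood among the sham arrays while the other 3 stood near day 3. Itga4 was thus tested only because it was high at day 3, and its sham level rests partly on readings below background, so no fold is given. The fitted change was 1.72 ± 0.44 at day 3 (adjusted p = 0.00555) and 1.11 ± 0.44 at day 7 (adjusted p = 0.096), or 1.61 at day 7 without replicate 2 (adjusted p = 0.00636). Normexp turned the day 3 sign (-0.36, adjusted p = 0.575), and with spots below local background left out the change was 0.27 (adjusted p = 0.219), so neither form kept the call. When a probe had to be above background on all 12 arrays, Itga4 was not tested.

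Itgb7, which pairs with Itga4 and Itgae on lymphocytes, changed by 0.66 ± 0.27 at day 3 (adjusted p = 0.0542) and by 0.43 ± 0.27 at day 7. Leaving out sham replicate 4, day 3 replicate 2 or day 7 replicate 2 made the day 3 change a call (0.66 to 0.80, adjusted p = 0.027 to 0.034). So did the replicate number as a block (0.66, adjusted p = 0.0406), the filter on all 12 arrays (0.66, adjusted p = 0.0449) and scaling to total signal (0.93, adjusted p = 0.0109). Itgad, above background on 2 sham, 4 day 3 and 2 day 7 arrays, changed by 0.58 ± 0.40 and 0.62 ± 0.40. Itgb2, the common beta chain of leukocytes, was above background on 0 sham, 2 day 3 and 0 day 7 arrays, Itgal on 0, 2 and 0, and Itgae on none of the 12.

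Markers of leukocytes moved beside these genes. All 4 tested markers of leukocytes in general and 7 of 9 tested macrophage markers rose at day 3, beside 24.2% of all tested genes. Of the macrophage markers, Adgre1 was above background on 2 sham, 4 day 3 and 3 day 7 arrays. It was thus tested only because it was high at day 3. Cd68 and Trem2 were above background on 3 of 4 sham arrays. Summed as linear signal in units of the 75th percentile, the leukocyte markers ranged from 6.32 to 9.17 in sham, from 14.7 to 17.7 at day 3 and from 10.3 to 14.5 at day 7. The macrophage markers ranged from 11.7 to 17.5, from 27.7 to 40.1 and from 21.4 to 29.9. Among T and natural killer cell markers, 2 of 7 rose and 1 fell. Those that rose, Cd3d and Cd3g, were above background on 3 and 2 sham arrays, and Cd3g passed the filter only through day 3. For neutrophils 2 of 6 markers could be tested, for platelets 2 of 5 and for B lymphocytes 1 of 4. Of these, limma called 0 at day 3, and 1 platelet marker had an unadjusted p under 0.05. The part of these cells in the result was not tested, and in whole-kidney RNA fewer cells of a type cannot be told apart from less RNA per cell.

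Itgam, the alpha chain of the macrophage and neutrophil receptor for complement, is measured by a pair of overlapping probes. The sequences are shown because they share a run of 34 bases, in capitals, and yet only 1 of the probes was above background in sham. The bright probe lies in 1 stretch (chr1:187385524-187385583, plus strand). The dim probe spans 534 bases of the genome (chr1:187385032-187385565, plus strand), as a probe across an intron does. After the shared run the letters of the probes differ, although their coordinates overlap there.
Itgam, bright probe: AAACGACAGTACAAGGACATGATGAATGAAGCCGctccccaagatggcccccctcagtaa
Itgam, dim probe: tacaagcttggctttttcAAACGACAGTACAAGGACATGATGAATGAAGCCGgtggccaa

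The bright probe read -1.26, -1.16, -0.23 and -1.17 in sham, -0.93, -1.20, -1.08 and -0.23 at day 3, and -0.59, -0.49, -1.11 and -0.97 at day 7. The groups overlapped throughout, with changes of 0.09 ± 0.27 at day 3 and 0.16 ± 0.27 at day 7. The dim probe was well above background on 0 sham, 2 day 3 and 2 day 7 arrays, so it was not tested. Its day 3 mean (-4.10) and day 7 mean (-4.69) did not exceed the lowest level that was well above background in sham (-3.97 on average), so no difference from sham is given. The bright probe stands for Itgam because the brightest probe stands for each gene, and the values above for Itgam rest on that choice.

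The dim Itgam probe also carries a motif of other alpha chains. The motif TTNTTCAAA, in which N is any base, encodes part of the stretch that integrin alpha chains share just inside the membrane. Searched on both strands, it was in 3 of 32 member probes, those of Itga1, Itgal and Itgam, and in 186 of 30367 probes (0.613%). The Itga1 probe (chr2:47107893-47112038, minus strand) and the Itgal probe (chr1:186594579-186597988, plus strand) are shown with the motif in capitals, because it is the stretch that these probes have in common. Itga1 was well above background on 12 of 12 arrays and Itgal on 2 of 12.
Itga1: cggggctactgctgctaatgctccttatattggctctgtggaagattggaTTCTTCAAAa
Itgal: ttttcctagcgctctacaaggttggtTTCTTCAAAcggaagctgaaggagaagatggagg

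**Figure D3:**
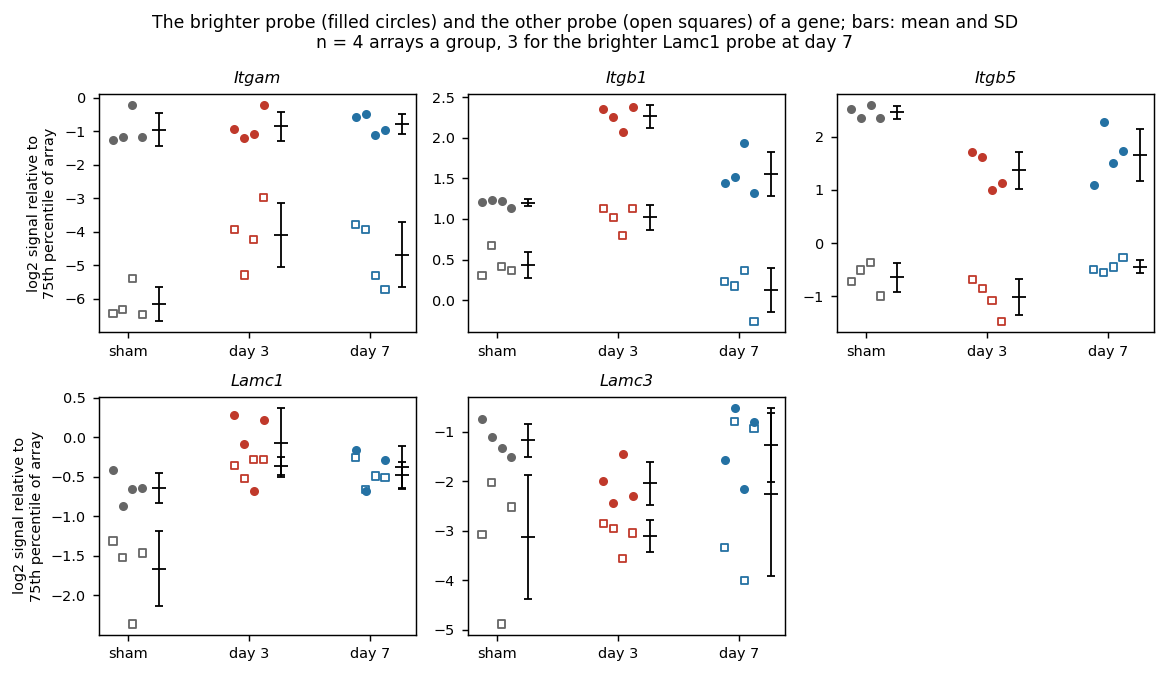
Log2 signal relative to the array's 75th percentile (vertical axis) for 5 genes with a pair of probes, the brighter as filled circles and the other as open squares; bars are the mean and SD (n = 4 arrays a group, 3 for the brighter Lamc1 probe at day 7). The bright Itgam probe overlaps between all groups, and the Lamc1 probes differ in the size of their rise. The dim Itgam probe lies mostly below background, so the order of its points there is not read as a difference.

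Genes that act with integrins and laminins were counted from 5 lists. At day 3, 57.3% of all tested genes were called, 24.2% higher and 33.1% lower. Of 28 tested genes of the adhesion machinery, the proteins that tie integrins to actin, 16 rose and 1 fell at day 3 (60.7% called). The largest rises were those of Flna, a filamin that crosslinks actin (2.67), Fermt1, an integrin-activating kindlin of epithelia (2.38), and Vasp, which extends actin filaments (1.79). The fall was that of Tns1, a tensin (-1.82). At day 7, 2 were higher than sham, Fermt1 (1.36) and Lims2 (1.09), and Tns1 was lower (-1.14). This was 10.7% called, beside 18.9% of all tested genes. From day 3 to day 7, 12 of 28 fell and 1 rose, led by Flna (-2.02), Zyx (-1.19) and Lims1 (-1.16). That was 46.4% called, beside 31.4% of all tested genes, with 13.4% lower and 18% higher. The median of the list was 0.65 at day 3 and 0.13 at day 7.

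Of 16 tested partners of laminin in the basement membrane and laminin receptors that are not integrins, 11 rose and 4 fell at day 3. That was 93.8% called, beside 57.3% of all tested genes. Col18a1 (2.72), Col4a2 (2.34) and Col4a1 (1.98) rose, the last being chains of the collagen IV network found in all basement membranes. Col4a3 (-2.69) and Col4a4 (-2.79, with only 2 of 4 day 3 arrays above background), chains of the mature glomerular network, fell. Col4a4 passed the filter only through sham, where it was high. Col4a5, another chain of that network, rose (0.72, adjusted p = 0.0127 in limma's test). Ntn4 (-0.98), a netrin related to laminins, fell. At day 7, 6 were higher and 1, Ntn4 (-1.41), was lower, while Col4a4 (-1.17) and Col4a3 (-0.74) were not called. Of the list, 43.8% were called at day 7, beside 18.9% of all tested genes. Between day 3 and day 7 the change of Sdc1, a syndecan, was -2.52 and that of Col4a3 was 1.95, and each was called.

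Markers of podocytes, the cells that make glomerular collagen IV and Lamb2, moved beside the falls of Col4a3, Col4a4 and Lamb2, while Col4a5 rose. Their sum ranged from 14.3 to 18.2 in sham, from 4.12 to 5.25 at day 3 and from 5.59 to 11.4 at day 7, and 3 of 4 fell at day 3. For endothelium, 4 of 6 markers fell on each day, with sums of 15.4 to 19.8, 6.07 to 8.18 and 6.47 to 13.2. Tubule markers fell too. Proximal tubule sums ranged from 224 to 238 in sham, from 23.9 to 72.5 at day 3 and from 90.2 to 175 at day 7 (4 of 5 fell at day 3), and those of the thick ascending limb and collecting duct from 54.1 to 75.2, from 4.27 to 9.81 and from 34.9 to 53.0 (5 of 5 fell at day 3). At day 7, 0 of these last 5 were called against sham, beside 18.9% of all tested genes. Their log2 changes then ranged from -1.55 to 0.87, with a median of 0.38. Fibroblast and pericyte markers rose, 6 of 6 at day 3. Of these, Lum was above background on 0 sham, 4 day 3 and 2 day 7 arrays, so it was tested only because it was high at day 3. The sums of the 6 markers lay between 4.12 and 5.39 in sham, between 9.69 and 13.4 at day 3, and between 8.37 and 10.3 at day 7. At day 3, 24.2% of all tested genes were higher and 33.1% lower. The part of these cells in the integrin and laminin changes was not tested.

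Of 13 tested matrix ligands of integrins, 10 rose and 1 fell at day 3, with a median change of 2.42. That was 84.6% called, beside 57.3% of all tested genes. Spp1, Fgb and Fbn1 were above background on 3 of 4 sham arrays. Spp1, osteopontin, a ligand of alpha-v and Itga4 integrins, was 7.29 higher at day 3 and 7.08 at day 7. Fgb, the fibrinogen beta chain, was 4.77 and 4.19 higher, while Fga (1.05) and Fgg (-0.17) were not called at day 3. Tnc, tenascin, was above background on 1 sham, 4 day 3 and 3 day 7 arrays, so it was tested only because it was high at day 3. Its fitted change at day 3 was 3.48. Tgfbi fell (-0.85). At day 7, 7 of 13 were higher than sham, among them Fbn1 (2.11) beside Spp1 and Fgb. That was 53.8%, beside 8.23% of all tested genes called higher and 18.9% called in either direction.

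Of all tested genes, 24.2% were called higher at day 3 and 8.23% at day 7 (57.3% and 18.9% in either direction). Of 7 tested counter-receptors of leukocyte integrins, 3 were higher and 0 lower on each day, or 42.9%. These were Icam1, the ligand of Itgb2 integrins (2.37), F11r (1.60) and Vcam1, the ligand of Itga4 (1.01), at day 3, and Icam1 (1.60), Vcam1 (0.93) and Cdh1, the ligand of Itgae (0.78), at day 7. Of 8 tested genes for TGF-beta and proteins related to its latent complexes, 4 rose at day 3, led by Tgfb3 (2.22), Ltbp2 (1.26) and Tgfb1 (0.80). At day 7, 1 was higher, Tgfb3 (1.20). These shares, 50% and 12.5%, were below the 57.3% and 18.9% of all tested genes called in either direction. They were above the 24.2% and 8.23% called higher. Tgfb3, Ltbp2 and F11r were above background on 3 of 4 sham arrays. Ltbp2 was above background on 4 day 3 and 3 day 7 arrays, so it passed the filter only through day 3, where it was high.

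**Figure D4:**
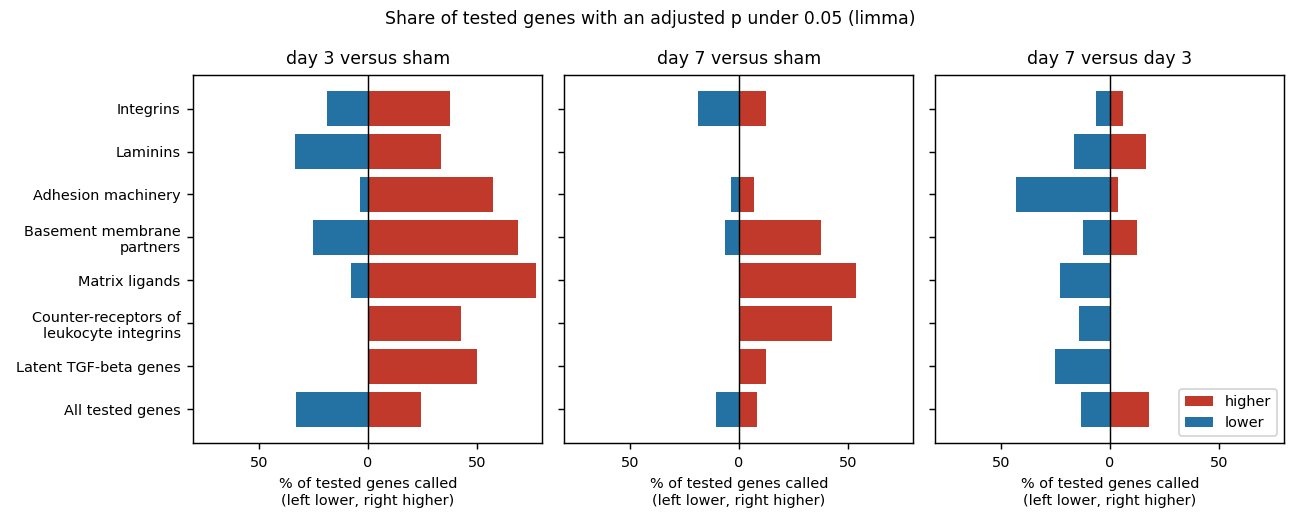
Percent of tested genes with an adjusted p under 0.05, higher to the right and lower to the left of 0, for the integrins (16 tested), the laminins (6 tested), the 5 related lists and all tested genes, in the 3 comparisons. At day 7 no laminin is called, and from day 3 to day 7 the adhesion machinery has 12 lower and 1 higher of 28. Of all tested genes, 18.9% are called at day 7, and 13.4% are lower and 18% higher from day 3 to day 7.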

How the data were processed

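Total RNA of 12 left kidneys was labelled with Cy3 and hybridised to a 1-colour Agilent rat array, per the labels. Agilent Feature Extraction, version 9.5.1.1 per the file headers, gave the spot values, and the headers place probes on rn4. The processed signal, mean signal and local background are intensities, per the file headers, not normalized between arrays. The authors' deposited value table holds log2 values centred on each probe; differences between its arrays correlated with those of the scanner values at 0.998 or more. The authors' flags for background, saturation and outlier spots are other values of 0 or 1, per the file headers.

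Here log2 of the processed signal was taken minus the 75th percentile of each array. Outlier spots were left out, spots of a probe were averaged, and the brightest of the 21062 probes that passed the filter stood for each gene. Gene names were updated by accession for 18380 probes and by symbol or synonym for 2188 and 596; 9203 kept the file's name. Models of 3 group means were fitted with limma 3.58.1 in R 4.3.3, two-sided, over 18497 genes. On simulated data for day 3 against sham, 38% of 100 genes changed by 1 and 77% of 100 changed by 2 (log2) were recovered. No others of the 18497 genes were changed there, whereas 57.3% of all tested genes were called at day 3. Recovery with that many changed genes was not tested. Same-numbered rats did not vary together (correlations of -0.33 to 0.14), so no pairing was used. The rats are separate animals per the labels. Arrays of a group correlated at 0.942 to 0.984, and the number of arrays limits the precision.

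The members and lists were chosen with earlier results of these data known. All 26 are named, 1 gene that meets the rule and 1 marker are not reported here; array values are given for those called in a comparison and for Itgam, chosen after its values were seen because its probes overlap, and up to 3 genes in each direction are named from other lists. Col4a5 is named besides these. Alternatives were other background corrections, scalings, filters, probe rules, blocks, groups and arrays left out.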

Additional observations from a re-analysis of the deposited data

Results flagged for a closer look

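A gap test over 65 groups of 4 arrays marked 4 arrays, and chance marks about 1 group in 20. Itga4 stood low at day 3 replicate 3 (-2.81) and at day 7 replicate 2 (-4.46), each below the other 3 arrays of its group. Itgam stood high in sham replicate 3 (-0.23) on its bright probe, and Itgb1 stood low in sham replicate 4 (1.14), where the 4 sham arrays lay close together.

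The effect at day 7 differed from the effect at day 3 for 4 genes, as the test between the injured groups showed: Itga10 (1.05), Itgb1 (-0.71), Lamb2 (0.87) and Lamb3 (-2.43), each as day 7 minus day 3.

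Probes that were not tested showed signal in injured kidneys. Well above background were Itga2 on 3 day 3 arrays, Itgal on 2, Itgb2 on 2, and the dim Itgam probe on 2 at day 3 and 2 at day 7. In sham this held for 1 array of Itga2 and for 0 of the others.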

How the results depend on the processing

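The 13, 5 and 4 genes called at day 3, at day 7 and between the injured groups became 3, 1 and 0 after normexp background correction. Calls over all tested genes also went down under normexp, from 57.3%, 18.9% and 31.4% to 17.1%, 0.492% and 0.86%. With spots below local background left out of it, they were 64.2%, 19% and 42.4%. The other alternatives gave 11 to 15, 4 to 7 and 3 to 5 genes, and leaving out 1 array in turn gave 9 to 14, 4 to 6 and 3 to 5. With the replicate number as a block the counts were 13, 4 and 4, with Itgb5 at day 7 (-0.81, adjusted p = 0.065) and Lamc3 at day 3 (-0.87, adjusted p = 0.0828) lost and Itgb7 at day 3 (0.66, adjusted p = 0.0406) gained. In 6 of 24 checks an array correlated best with its own number. Among changes called in the reported setting or the alternative, 3 took the other sign: Itga4 (-0.36) and Itga5 (-0.14) at day 3 under normexp, and Lama1 at day 3 with spots below background left out of it (-0.43, adjusted p = 0.0413). Of 263 values of called genes under other alternatives, 217 kept direction and call, 44 lost the call and 2 took the other sign. Of 44 uncalled changes, 6 took the other sign after scaling to total signal (Itgb8 at day 3; Itgb6, Lamb2 and Lamc3 at day 7; Itga6 and Itgb4 between the injured groups), and 20 did under normexp. The cause was not tested. Signal near background limits Itga4, Itgad and Lama1 in sham.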
